A study of Mus musculus with 2 samples.

Results

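The 10 immediate early genes described here are Fos, Fosb, Jun, Junb, Egr1, Egr2, Atf3, Nr4a1, Zfp36 and Ier2. Their choice was by name from the 28692 genes of the count matrices, with earlier results of these data known. Both matrices held all 10. They were read in single cells from the base of the heart of 3-day-old C57Bl6 mice of both sexes. The dorsal pool came from the area of the pulmonary veins, cardiac ganglia and sinoatrial node. The ventral pool came from the area of the outflow tract base, with the pulmonary artery and proximal aorta. Tissue of 15 hearts was pooled, the cells of each domain were grown adherently for 5 days, and the trypsin-released cells went into 1 library per domain made with 10x Genomics 3' v3 chemistry. There were thus no replicates and no test between domains. Each interval given is a 95% interval for counting error only, and a difference between domains cannot be told apart from one between dissections, cultures or library preparations.

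Immediate early genes are switched on within minutes of a stimulus, without new protein synthesis, by factors that are already present in the cell and are activated by MAP kinase, calcium or cAMP signals. Most of their products are transcription factors that pass the signal on to later genes, and their mRNAs are short-lived. In the heart they are known for their response to stretch, growth factors, adrenergic stimulation and injury, and in cell suspensions for their response to enzymatic dissociation. Fos, Fosb, Jun and Junb encode subunits of the AP-1 dimer, and Atf3 encodes a related stress-induced bZIP factor. Egr1 and Egr2 are zinc finger factors, Nr4a1 is an orphan nuclear receptor, Zfp36 encodes tristetraprolin, which binds and destabilises AU-rich mRNAs such as those of cytokines, and Ier2 is a small nuclear protein of less settled function.

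Cells were barcodes with at least 8000 UMIs (unique molecular identifiers, 1 per captured mRNA molecule) and at most 20% mitochondrial UMIs, which left 8926 dorsal and 10649 ventral cells. The median cell had 22774 UMIs in the dorsal library and 21462 UMIs in the ventral library. The median mitochondrial share was 3.03% in dorsal and 4.12% in ventral cells, and 22 cell barcodes occurred in both libraries. Cardiomyocyte-like cells, the contractile cells of the tissue sampled, numbered 37 in the dorsal library and 30 in the ventral one, so the values below describe mostly fibroblast-like and other stromal cells. Levels are UMIs summed over cells and scaled to a total of 1e+06 (CPM). With 3' tags this scale does not grow with transcript length.

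The promoters of the genes with large and with small domain differences are shown here because the factors that act on immediate early genes bind close to the transcription start. RefSeq promoters (GRCm38.p6) were searched for 8 of the 10 genes, in windows of 250 bases before to 50 bases after the start, and the 150 bases before the start are printed 5′ to 3′. Capitals mark a CArG box (the SRF site), the half-site of a cAMP response element (TGACG, or CGTCA on the other strand) or an Egr site (GCGNGGGCG or its reverse complement).
Egr2, chr10:67537719-67537868, plus strand: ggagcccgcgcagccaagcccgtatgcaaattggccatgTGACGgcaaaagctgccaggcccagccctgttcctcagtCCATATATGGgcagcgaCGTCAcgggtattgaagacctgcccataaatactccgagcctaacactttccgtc
Nr4a1, chr15:101266696-101266845, plus strand: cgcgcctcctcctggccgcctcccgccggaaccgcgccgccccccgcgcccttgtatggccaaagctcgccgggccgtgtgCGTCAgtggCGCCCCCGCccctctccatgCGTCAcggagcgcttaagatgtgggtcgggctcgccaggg
Atf3, chr1:191183334-191183483, minus strand: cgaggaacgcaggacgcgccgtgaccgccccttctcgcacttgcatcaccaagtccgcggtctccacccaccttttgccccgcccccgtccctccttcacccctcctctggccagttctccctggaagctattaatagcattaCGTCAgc
Zfp36, chr7:28379229-28379378, minus strand: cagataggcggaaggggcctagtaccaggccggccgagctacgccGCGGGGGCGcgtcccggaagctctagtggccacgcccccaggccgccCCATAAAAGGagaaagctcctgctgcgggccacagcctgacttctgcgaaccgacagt
Fos, chr12:85473740-85473889, plus strand: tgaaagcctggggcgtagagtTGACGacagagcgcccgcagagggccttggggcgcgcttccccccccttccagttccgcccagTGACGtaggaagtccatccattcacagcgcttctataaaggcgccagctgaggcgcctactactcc
Junb, chr8:84978749-84978898, minus strand: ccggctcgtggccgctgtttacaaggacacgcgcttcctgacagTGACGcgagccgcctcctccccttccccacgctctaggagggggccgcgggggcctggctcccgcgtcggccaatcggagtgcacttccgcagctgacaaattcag
A CArG box lay 72 to 63 bases before this start of Egr2, 1 of 5 starts listed for the gene, and 58 to 49 bases before that of Zfp36. These were the 2 of the 8 genes with a CArG box in the windows searched, and 1.63% of all 32851 promoter windows held one. Sites more than 250 bases before the start were not searched, so a gene without a site here may have one farther upstream. The promoters of the other 2 genes were not searched. The half-site was found in 6 of the 8 genes, namely Fos, Fosb, Junb, Egr2, Atf3 and Nr4a1, and in 20.8% of all windows. For each motif a gene counted when any of its windows held it, while the share is per window, and Egr2 had 5 windows. Windows of the 8 genes had 56.0% to 72.3% GC, against a median of 52.7% over all windows. The shares were not matched for GC. Egr sites were present in Fosb, Nr4a1 and Zfp36, against 5.55% of all windows. The full cAMP response element TGACGTCA, found in 1.79% of all windows, and the AP-1 site TGANTCA, found in 7.81%, were in the windows of none of these 8 genes, and an NF-kB consensus, found in 4.51%, was in those of Fos, Fosb and Nr4a1. The window of Jun held none of the motifs searched. Half-sites were present in Egr2, whose level differed most between domains, and in Junb, whose level differed least. Egr sites were in Fosb, which differed by less than 2-fold, and in Nr4a1 and Zfp36, which differed by more. The CArG box was found only in Egr2 and Zfp36, both more than 2-fold higher in dorsal cells. The part of any motif in the domain differences was not tested.

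All 10 genes had a higher level in the dorsal library. The log2 ratio of dorsal over ventral CPM had a median of 1.53 over the 10 genes and of 0.04 over the 7660 genes with a mean of at least 10 CPM over both libraries. At a fixed size of 2-fold, 6 of the 10 were higher in dorsal cells, beside 4.15% of all 7660 genes. None was 2-fold higher in ventral cells, beside 4.27% of all genes. The size ran from 1.42-fold for Junb to 7.57-fold for Egr2, and the intervals of neighbours in the order of ratios did not overlap.

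Egr2 (chr10:67535475-67542188, plus strand), a factor best known from Schwann cell myelination and hindbrain segmentation, had 29.6 CPM in the dorsal library, with an interval of 28.9 to 30.3, and 3.92 CPM in the ventral library, with an interval of 3.68 to 4.17. Its log2 ratio of 2.92 (interval 2.82 to 3.02) exceeded that of 99.5% of the 7660 genes. Nr4a1 (chr15:101254269-101274795, plus strand) followed with 91.9 CPM in dorsal cells, against 18.8 CPM in ventral ones (log2 ratio 2.29, interval 2.25 to 2.34). These 2 were among the least abundant of the 10 genes in the ventral culture, and both differed by more than 4-fold. Atf3 (chr1:191170296-191218039, minus strand) had 64.8 CPM in dorsal cells, against 14.2 CPM in ventral ones, and a log2 ratio of 2.19 (2.13 to 2.24).

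Jun (chr4:95049034-95052222, minus strand) had 258 CPM in dorsal cells, against 71.0 CPM in ventral ones (log2 ratio 1.86, interval 1.84 to 1.89). For Zfp36 (chr7:28376784-28380253, minus strand) the levels were 167 CPM in dorsal cells, against 55.4 CPM in ventral ones (log2 ratio 1.59, interval 1.56 to 1.62). Egr1 was the most abundant of the 10 in the dorsal library, with 518 CPM against 186 CPM in the ventral library and a log2 ratio of 1.48 (1.46 to 1.49). These 3 genes completed the 6 with a difference of at least 2-fold.

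The other 4 genes were also higher in dorsal cells, by less than 2-fold. Ier2 (chr8:84661331-84662852, minus strand) had 337 CPM in dorsal cells, against 185 CPM in ventral ones (log2 ratio 0.87, interval 0.85 to 0.88). Fos (chr12:85473890-85477273, plus strand) had 175 CPM in dorsal cells, against 98.8 CPM in ventral ones (log2 ratio 0.83, interval 0.80 to 0.85). Within AP-1, the Jun subunit gene thus differed 3.63-fold and its partner Fos 1.77-fold. Fosb (chr7:19302696-19310051, minus strand) had 53.5 CPM in dorsal cells, against 33.6 CPM in ventral ones (log2 ratio 0.67, interval 0.63 to 0.71). Junb (chr8:84974484-84978718, minus strand) was the most abundant of the 10 in the ventral library and the least different, with 496 CPM in dorsal cells, against 349.9 CPM in ventral ones (log2 ratio 0.50, interval 0.49 to 0.52).

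**Figure D1:**
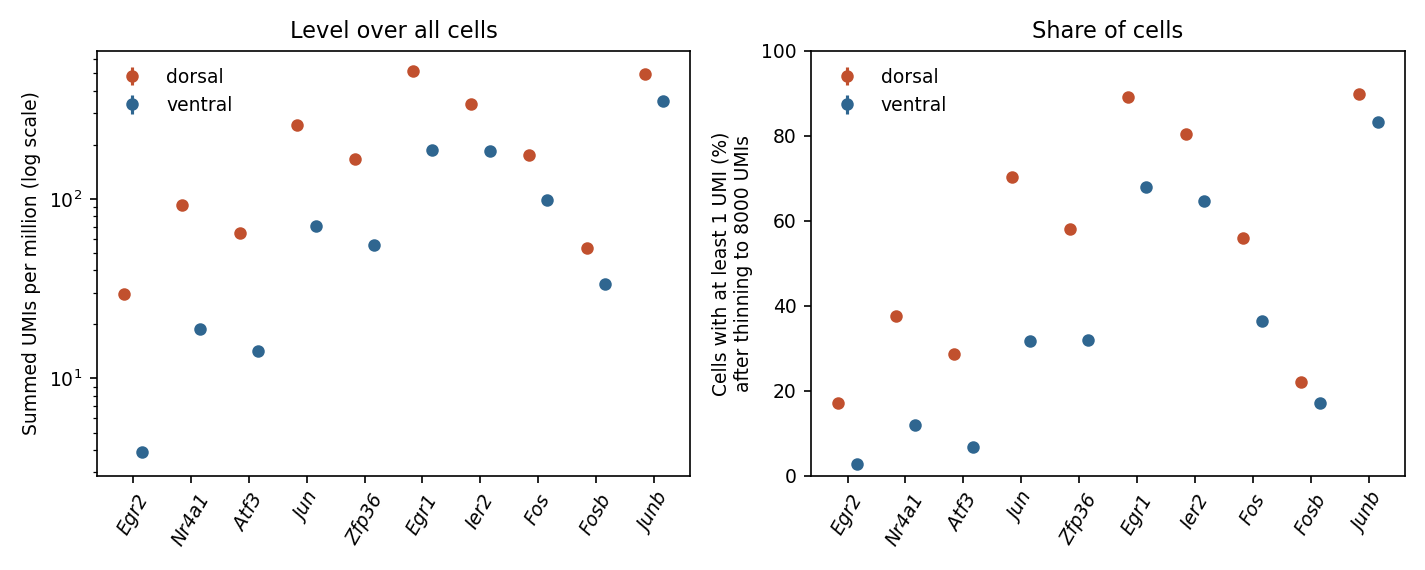
The 10 genes ordered by their domain ratio, with dorsal values left of ventral ones. The left panel gives summed UMIs in CPM on a log scale, from 3.92 for Egr2 in ventral cells to 518 for Egr1 in dorsal cells; the right panel gives the percent of cells with at least 1 UMI after every cell was thinned to 8000 UMIs. Bars are 95% counting intervals, mostly smaller than the points, and every dorsal point lies above its ventral one.

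To compare cells of unequal depth, each cell was thinned at random to 8000 UMIs. The median difference over the 10 genes in the share of cells with at least 1 UMI was then 20.3 percentage points, dorsal minus ventral. After thinning Jun showed the largest difference in share, and without thinning Atf3 did. Jun had a UMI in 70.4% of dorsal cells and 31.7% of ventral cells after thinning, and in 88.7% of dorsal and 54.9% of ventral cells without it. Atf3 had one in 50.5% of dorsal and 14.5% of ventral cells without thinning. Egr2 was found in 17.0% of thinned dorsal cells and 2.70% of thinned ventral cells, against 34.0% and 6.68% of dorsal and ventral cells without thinning. Its mean was 0.238 UMIs per thinned dorsal cell and 0.0309 UMIs per thinned ventral cell. Thinned cells with Egr2 had on average 1.40 UMIs in the dorsal library and 1.15 UMIs in the ventral one. Egr1, at a mean of 4.57 UMIs per thinned dorsal cell and 1.57 UMIs per thinned ventral cell, was found in most cells of both domains, with 89.0% of dorsal and 68.0% of ventral cells. Its positive cells had on average 5.13 UMIs in the dorsal library and 2.30 UMIs in the ventral one.

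Nr4a1 was found in 37.5% of thinned dorsal and 11.9% of thinned ventral cells, and Atf3 in 28.6% of dorsal and 6.87% of ventral cells. Zfp36 followed with 58.1% of dorsal and 31.9% of ventral cells. These 3 genes therefore had a UMI in a minority of ventral cells at this depth. Fos was found in 56.1% of dorsal and 36.4% of ventral cells, Ier2 in 80.4% of dorsal and 64.6% of ventral cells, and Junb in 89.9% of dorsal and 83.3% of ventral cells. The smallest difference in share after thinning was that of Fosb, with 22.1% of dorsal and 17.1% of ventral cells, and without thinning that of Junb, with 97.3% of dorsal and 94.9% of ventral cells. Thinned cells with Fosb had 2.27 UMIs in the dorsal library and 1.55 UMIs in the ventral one. Fosb was also the most unevenly spread gene in dorsal cells: the 10% of dorsal cells with the most Fosb held 66.9% of its UMIs, against 25.4% for Egr1.

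In single cells, more of the genes were found together in the dorsal library. The summed UMIs of the 10 genes per thinned cell had a median of 16 in the dorsal library, with quartiles of 10 and 25, and a median of 7 in the ventral library, with quartiles of 4 and 11. The dorsal median was thus equal to the ventral 90th percentile of 16, and the share of cells above that value had an interval of 48.9 to 51.0% in the dorsal library and was 8.71% in the ventral library. The difference was not held by a small set of cells: the 10% of cells with the highest sums held 25.1% of all UMIs of the 10 genes in the dorsal library and 26.6% in the ventral library. The median cell had UMIs of 6 of the 10 genes in the dorsal library and of 3 in the ventral library. At least 5 of the genes were found in 70.2% of dorsal cells (interval 69.3 to 71.2%) and in 27.6% of ventral cells (26.8 to 28.5%). All 10 were found together in 67 dorsal cells and 4 ventral cells.

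**Figure D2:**
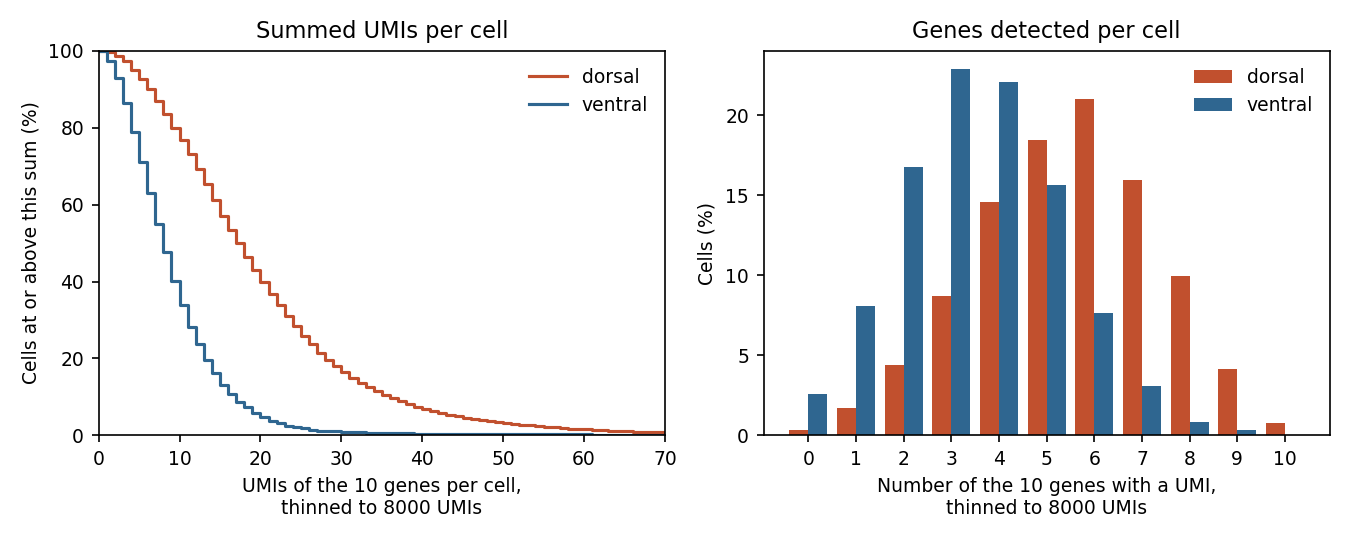
Immediate early gene UMIs in single cells after thinning to 8000 UMIs, dorsal in red and ventral in blue. The left panel gives the percent of cells whose summed UMIs of the 10 genes reach the value on the x axis, and the dorsal curve lies above the ventral one from a sum of 1 upward; the right panel gives the percent of cells by the number of the genes found, with medians of 6 in dorsal and 3 in ventral cells.

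Whether members occurred in the same cells was described by correlations of log-normalised values over the cells of a library, which share the library and differ in depth and cell class. Over the 45 gene pairs the median Pearson correlation was 0.271 in the 8926 dorsal cells and 0.198 in the 10649 ventral cells. For a member with all other measured genes the median was -0.0137 in dorsal and -0.000859 in ventral cells. Egr1 and Ier2 formed the closest pair in dorsal cells, at 0.599, and reached 0.431 in ventral cells. In ventral cells Fos and Fosb formed the closest pair, at 0.499, against 0.329 in dorsal cells. Junb and Zfp36 had a correlation of 0.534 in dorsal and 0.329 in ventral cells. In dorsal cells Atf3 had the lowest mean correlation with the other members, at 0.113. In ventral cells Egr2 had the lowest, at 0.125, against 0.129 for Atf3. The correlation of Atf3 with Egr1 was 0.00940 in dorsal and 0.0151 in ventral cells. With Jun it reached 0.356 in dorsal and 0.429 in ventral cells. Within fibroblast-like cells alone the median over pairs was 0.233 in dorsal and 0.191 in ventral cells.

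Cells were clustered without the 10 genes and without the other listed genes, and clusters were named "-like" from marker genes. The 5 classes that held 50 or more cells per library were fibroblast-like (4976 dorsal and 7450 ventral cells), mural-like (166 and 826 dorsal and ventral cells), Schwann and glial-like (452 and 189), macrophage-like (196 and 131) and endothelial-like (99 and 131). Dorsal fibroblast-like cells lay mostly in clusters 1, 3, 7 and 9 and ventral ones in clusters 11, 12, 13 and 15. Dorsal mural-like cells lay mostly in cluster 16, led by Des and Actg2, and ventral ones in clusters 10 and 22, so that both of these comparisons set different clusters beside each other. The glial-like, macrophage-like and endothelial-like classes were 1 cluster each. Over the 5 classes the median of the class medians of the log2 ratio was 0.74, against 1.53 in all cells.

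Fibroblast-like cells had all 10 genes higher in the dorsal library, with a median log2 ratio of 1.41, and 6 of 10 by at least 2-fold, beside 4.94% of the 7445 genes measured at this level in the class. The 6 were those of the pooled comparison. Egr2 had 29.0 CPM in dorsal fibroblast-like cells, against 4.35 CPM in ventral ones (log2 ratio 2.74, interval 2.62 to 2.85). Atf3 had 52.1 CPM in dorsal fibroblast-like cells, against 10.4 CPM in ventral ones (log2 ratio 2.32, interval 2.25 to 2.40). For Jun the levels in this class were 253 CPM in dorsal cells, against 63.7 CPM in ventral ones (log2 ratio 1.99, interval 1.96 to 2.02). Junb differed least, with 498 CPM in dorsal cells, against 405 CPM in ventral ones (log2 ratio 0.30, interval 0.28 to 0.31).

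Mural-like cells, named from smooth muscle and pericyte markers together, had the largest median difference of the 5 classes, with dorsal cells mostly of the Des and Actg2 cluster 16. Cluster 14, with Rgs5 and Myh11 among its leading genes and 569 dorsal and 40 ventral cells, had 6 mural markers, too few of the list for the name, and is outside the class. It differed from cluster 16 in Atf3, at 24.6 CPM in its dorsal cells and 130 CPM in those of cluster 16, and in Jun, at 107 CPM in its dorsal cells and 276 CPM in those of cluster 16. The mural-like values therefore do not cover all dorsal cells with such markers. All 10 genes were higher by 2-fold or more in dorsal cells, 9 of them with a mean of at least 10 CPM, beside 7.79% of the 7380 genes measured at that level, and the median log2 ratio was 1.94. Without the likely doublets 8 genes reached 2-fold. Atf3 had 121 CPM in dorsal mural-like cells, against 8.52 CPM in ventral ones (log2 ratio 3.83, interval 3.52 to 4.15). Fos had 122 CPM in dorsal mural-like cells, against 19.6 CPM in ventral ones (log2 ratio 2.64, interval 2.40 to 2.88). Egr2, the member under 10 CPM, rested on 23 dorsal and 9 ventral UMIs. Fos thus differed 1.77-fold over all cells and by a log2 ratio above 2 in this class.

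Schwann and glial-like cells had a median log2 ratio of 0.74, and 3 of 10 genes were higher by 2-fold or more in dorsal cells, beside 3.31% of 7912 genes. The 3 were Egr1, Egr2 and Zfp36. The count was 1 at a coarser clustering and 1 without the likely doublets. Markers of other cell types also moved in this class: 10 neuron markers summed to 1416 CPM in the dorsal library, with 2 at 0, and to 285 CPM in the ventral one, with 6 at 0, and the smooth muscle markers to 265 CPM in dorsal cells, against 1704 CPM in ventral ones, with none at 0. Their part in the result was not tested. Egr1 had 269 CPM in dorsal glial-like cells, against 105 CPM in ventral ones (log2 ratio 1.36, interval 1.20 to 1.52). Jun, which differed 3.63-fold over all cells, had 453 CPM in dorsal glial-like cells, against 473 CPM in ventral ones (log2 ratio -0.06, interval -0.15 to 0.02). Jun was found in 92.7% of dorsal and 93.7% of ventral glial-like cells after thinning. Its level was higher in this class than in any other class of at least 50 cells, in each library. The same held for Atf3, with 265 CPM in dorsal glial-like cells, against 157 CPM in ventral ones (log2 ratio 0.75, interval 0.62 to 0.89). In injured peripheral nerve, Jun and Atf3 are known as markers of the repair state of Schwann cells.

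Macrophage-like cells had a median log2 ratio of 0.47, and 1 of 10 genes was higher by 2-fold or more in dorsal cells, beside 3.1% of 7456 genes. This gene was Nr4a1, known in macrophages as a brake on inflammatory gene expression, with 38.9 CPM in dorsal cells, against 6.07 CPM in ventral ones (log2 ratio 2.68, interval 2.08 to 3.34). It was found in 15.3% of 196 dorsal and 3.05% of 131 ventral macrophage-like cells after thinning. Egr1 came close to the 2-fold size, with 207 CPM in dorsal cells, against 106 CPM in ventral ones. Atf3, Egr2 and Ier2 had intervals of the log2 ratio that included 0, at 0.09 (-0.12 to 0.31), -0.30 (-0.81 to 0.23) and 0.05 (-0.13 to 0.23).

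Endothelial-like cells had a mixed pattern, with a median log2 ratio of 0.56. Nr4a1 and Egr2 were higher by 2-fold or more in dorsal cells, beside 6.69% of 8044 genes, and Fos was at least 2-fold lower, beside 3.67% of these genes. Nr4a1 had 15.6 CPM in dorsal endothelial-like cells, against 5.40 CPM in ventral ones (log2 ratio 1.53, interval clear of 0). Egr2, with a mean under 10 CPM, rested on 8 dorsal and 3 ventral UMIs (log2 ratio 1.64, interval -0.42 to 4.19). Fos had 34.2 CPM in dorsal endothelial-like cells, against 79.6 CPM in ventral ones (log2 ratio -1.22, interval -1.61 to -0.85). Atf3 had 65.4 CPM in dorsal endothelial-like cells, against 122 CPM in ventral ones (log2 ratio -0.90, interval -1.18 to -0.62). The smooth muscle markers summed to 246 CPM in dorsal endothelial-like cells, against 1170.0 CPM in ventral ones, and to 485 CPM in dorsal macrophage-like cells, against 1881 CPM in ventral ones, and their part in these classes' results was not tested.

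**Figure D3:**
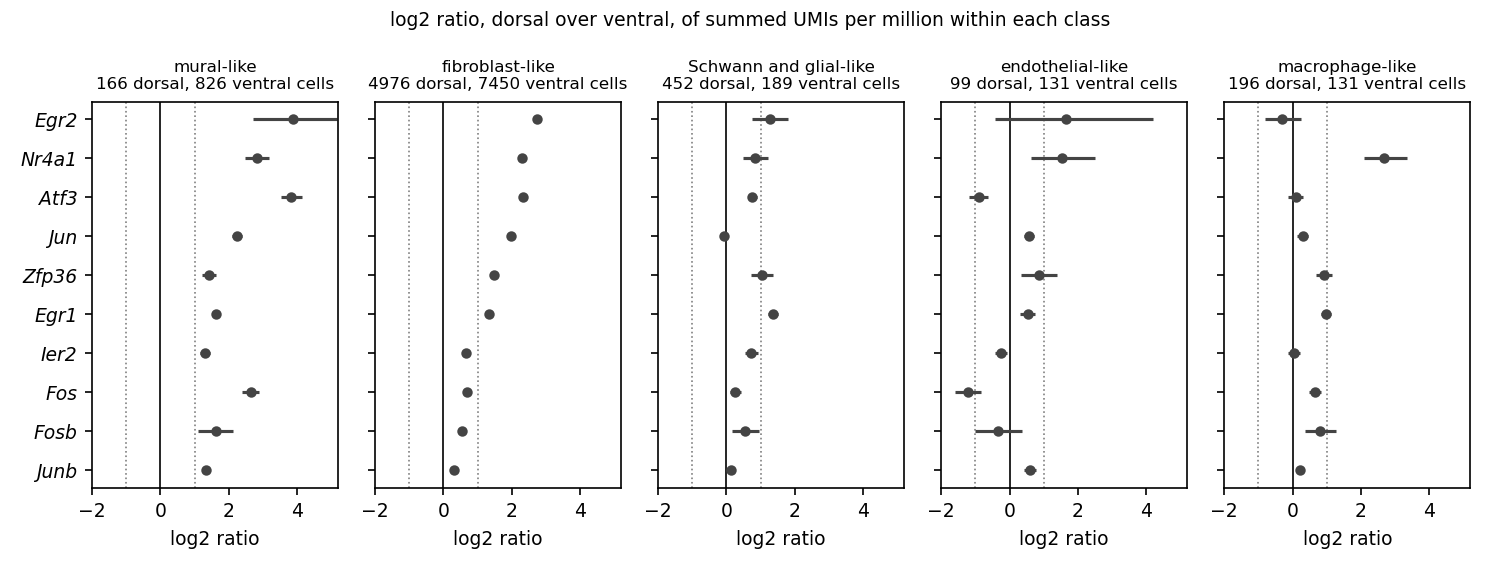
log2 ratio of dorsal over ventral CPM of the 10 genes (rows) in the 5 classes that held 50 or more cells per library (panels, ordered by their median). Points are ratios of summed UMIs, bars 95% counting intervals, dotted lines 2-fold; all mural-like points lie right of 1, while Jun lies at -0.06 in Schwann and glial-like cells and Fos and Atf3 lie left of 0 in endothelial-like cells.

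Across the 5 classes, Nr4a1, Zfp36, Egr1 and Junb had a ratio above 0 in each, with intervals clear of 0. Nr4a1 ranged from a log2 ratio of 0.84 in glial-like to 2.83 in mural-like cells, Zfp36 from 0.85 in endothelial-like to 1.49 in fibroblast-like cells, and Egr1 from 0.53 in endothelial-like to 1.64 in mural-like cells. Junb ranged from 0.14 in glial-like to 1.34 in mural-like cells. A ratio above 0 was thus found in every class for these 4 genes and not for Jun, Atf3, Egr2, Fos, Fosb and Ier2, at the size of the counting intervals. For Junb in glial-like cells it was small, with an interval of 0.03 to 0.25. The median over all 7912 genes measured in that class was 0.09, which lay within this interval. The order of classes also differed between the genes. In the dorsal library Egr1 was highest in chondrocyte-like cells (559 CPM), a class of 582 cells seen there alone, and lowest in endothelial-like cells (167 CPM), with no overlap of intervals between neighbours in the order of 6 classes. The chondrocyte-like class was named from 4 markers and was not formed at resolution 0.5. Among single dorsal clusters, Egr1 was higher in fibroblast-like clusters 9 (669 CPM) and 1 (654 CPM), so the order depends on how cells are grouped. In the ventral library Egr1 was highest in fibroblast-like cells (209.9 CPM) and lowest in glial-like cells (105 CPM), and the other 5 classes overlapped in a chain of neighbours.

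Single clusters gave a finer view. The summed level of the 10 genes lay between 1025 and 3335 CPM in the 12 clusters with at least 50 dorsal cells, and between 540.2 and 1286 CPM in the 11 clusters with at least 50 ventral cells. Of the 12 dorsal values, 10 were above the highest ventral one, and the exceptions were the macrophage-like and the endothelial-like cluster. The highest value was that of fibroblast-like cluster 9, led by Grem1 and Thbs4, whose 348 cells made up 3.90% of dorsal cells and held 5.30% of the UMIs of the 10 genes. Fosb reached 195 CPM there, against 13.5 to 78.4 CPM in the other dorsal clusters. The lowest ventral value was that of mural-like cluster 10, led by Sost and Igfbp2. For Nr4a1, 11 of the 12 dorsal clusters were above the highest ventral cluster, against 10 for Egr1, 10 for Zfp36, 1 for Atf3 and 0 for Jun. The highest ventral value of Jun and of Atf3 was that of the glial-like cluster.

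**Figure D4:**
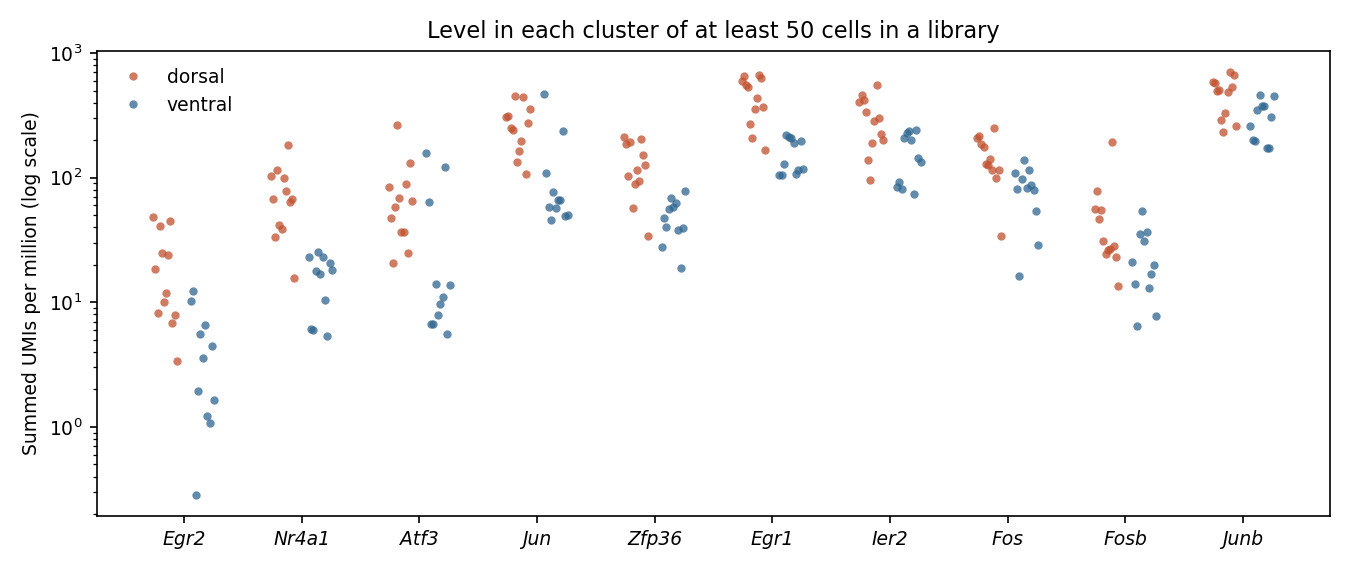
CPM of each gene, on a log scale, in every cluster with at least 50 cells in the dorsal library (12 red points, left) or in the ventral library (11 blue points, right). The 2 sets of points separate almost fully for Nr4a1 and Egr1 and overlap widely for Fos and Fosb; the highest ventral points of Jun and Atf3 are the Schwann and glial-like cluster.

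Cell depth, mitochondrial share and free RNA moved with the values to different degrees. The summed level of the 10 genes was lower in cells with more UMIs, at 2774 CPM in the shallowest and 1796 CPM in the deepest 25% of dorsal cells, and at 1180 CPM in the shallowest and 929 CPM in the deepest 25% of ventral cells. Among cells of like depth the median log2 ratio was 1.55 at 8000 to 15000 UMIs, 1.72 at 15000 to 25000 UMIs, 1.59 at 25000 to 40000 UMIs and 1.30 above. Fosb depended most on depth, with a log2 ratio of 1.46 in the shallowest and 0.06 in the deepest of these bins. Fos had 1.20 in the shallowest and 0.41 in the deepest bin, while Junb stayed between 0.47 and 0.56. By mitochondrial share the median log2 ratio was 1.38 at 2% to 3%, 1.51 at 3% to 4%, 1.24 at 4% to 6% and 1.05 at 6% to 20%, where 323 dorsal and 344 ventral cells remained and 5 genes reached 2-fold. In that last bin Jun had 0.91 and Fosb 0.18 (interval -0.16 to 0.52). Below 2% the median was 0.72 and Atf3 had -0.24 (interval -0.81 to 0.39), from 592 dorsal cells and only 16 ventral ones. Egr2 had a ratio of 2.86 at 2% to 3% and 1.81 at 6% to 20%. In barcodes of 1 to 100 UMIs, which hold mostly free RNA, Egr2 had 27.9 CPM in the dorsal library and 6.73 CPM in the ventral one, and Jun had 201 CPM in the dorsal library and 76.3 CPM in the ventral one. Both were higher in the dorsal library in these barcodes too, and the part of free RNA in the cells' values was not tested. After thinning, a UMI of Egr2 was found in 17.6% of dorsal fibroblast-like, 13.3% of glial-like and 7.14% of macrophage-like cells. It was found in 6.02% of dorsal mural-like and 4.64% of chondrocyte-like cells. In the 99 dorsal endothelial-like cells the share was 1.01% (interval 0.03 to 5.50%).

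Of the other genes of these pathways, relatives at each level were compared at the same 2-fold size. The lists were chosen by name with earlier results of these data known, so their counts are not independent of these data. Genes with a mean under 10 CPM were left out of each list's count and median. Of all 7660 genes, 4.15% were higher in dorsal cells at this size and 4.27% in ventral ones. These shares stand beside each list count below. Of 10 AP-1 relatives, the 6 with a mean of at least 10 CPM had a median log2 ratio of 0.72 and none reached 2-fold. Those under the minimum were all higher by more than 2-fold in dorsal cells. Their ratios were 2.39 for Fosl1, 1.92 for Batf, 1.81 for Batf2 and 1.06 for Batf3. Jund, the constitutive Jun gene, had 449 CPM in dorsal cells, against 268 CPM in ventral ones (log2 ratio 0.74), and Fosl2 and Mafg had ratios of 0.81 and 0.78. Of 22 other immediate early genes, 11 were higher by 2-fold or more in dorsal cells and 2 lower, with a median of 1.09. Gem, which encodes a small GTP-binding protein that limits calcium channel activity, had 118 CPM in dorsal cells, against 8.41 CPM in ventral ones (log2 ratio 3.81). The antiproliferative gene Btg2 and the growth regulator Myc had ratios of 2.04 and 2.01. The 2 genes lower in dorsal cells, named after their values were seen, were Gadd45g at -1.88 and Ctgf at -1.20.

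Genes that act upstream of the 10 differed little. Of 15 kinases and factors such as Srf, Creb1 and Elk1, none reached 2-fold in either direction, the median was -0.06, and the largest ratio in size was that of the SRF coactivator gene Mkl1 at -0.76. Of 15 genes of MAP kinase feedback, 6 had a mean of at least 10 CPM, with a median of 0.69. Of these 6, Errfi1, an inhibitor of EGF receptor kinases, was higher in dorsal cells at 1.96. Spry1, an inhibitor of receptor tyrosine kinase signalling, was lower at -1.04. Under the minimum, ratios in this list ranged from -0.34 for Dusp4 to 1.37 for Dusp6. Of 4 Egr corepressors and Zfp36 relatives, Zfp36l1 was higher at 1.10, and the median was 0.22. The activity of the kinases and factors is set mostly by phosphorylation, which was not measured.

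SRF has another set of targets, the cytoskeletal genes that it drives with MRTF coactivators, and these went the other way. Of 12 such genes, 10 were at least 2-fold lower in dorsal cells, beside 4.27% of all 7660 genes. None was higher, and the median log2 ratio was -1.32. The smooth muscle actin gene Acta2 had 858 CPM in dorsal cells, against 5810 CPM in ventral ones (log2 ratio -2.76), and Tagln and Myl9 had ratios of -2.24 and -2.15. Acta2, Tagln and Cnn1 are also on the list of 10 smooth muscle markers, which summed to 1842 CPM in the dorsal library and 9183 CPM in the ventral one with none at 0. Within fibroblast-like cells that marker sum was 1104 CPM in dorsal cells, against 7629 CPM in ventral ones. The part of smooth muscle-like cells in this result was not tested.

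Of 10 mRNAs known as Zfp36 targets, 6 had a mean of at least 10 CPM. All 6 were higher by 2-fold or more in dorsal cells, beside 4.15% of all 7660 genes, with a median log2 ratio of 3.11. Ptgs2 and Lif met the minimum only through their dorsal level, with 3.22 and 2.60 CPM in ventral cells. Under the minimum, Csf2 had a ratio of 3.62 and Tnf 1.48. Il10 and Il1b, also under it, had 0.42 and 0.14, with intervals that included 0. The chemokine gene Cxcl2 had 814 CPM in dorsal cells, against 30.6 CPM in ventral ones (log2 ratio 4.73), and Ptgs2, which encodes the prostaglandin synthase COX-2, and the cytokine gene Lif had ratios of 3.36 and 3.14. The mRNA of Zfp36, whose product is known to destabilise these mRNAs, was itself 3.01-fold higher in dorsal cells. Of 20 genes of the NF-kB response, 13 were at least 2-fold higher, beside 4.15% of all 7660 genes, and none was 2-fold lower. Their median was 1.28, and the largest ratios were those of Cxcl5 at 3.37, Tnfaip2 at 2.85 and Nfkbiz at 2.64. Of the other 7, named here in part after their values were seen, the subunit genes Rela and Nfkb2 had 0.53 and 0.20, and the chemokine gene Ccl20 was lower, with 28.4 CPM in dorsal cells, against 40.1 CPM in ventral ones (log2 ratio -0.49, interval -0.54 to -0.45). The 11 macrophage markers summed to 934 CPM in the dorsal library and 492 CPM in the ventral one with none at 0, and within fibroblast-like cells to 59.2 CPM in dorsal cells, against 46.9 CPM in ventral ones. Cxcl2, Cxcl5 and Cxcl1 were among the 10 leading genes of unnamed cluster 0, which held 1618 dorsal and 12 ventral cells. The part of this cluster in the ratios of both lists was not tested. Among 6 AP-1 target genes 3 were higher, namely the matrix protein gene Spp1 at 2.47, the protease gene Mmp3 at 1.83 and Cd44 at 1.29, with a median of 1.03.

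Stress pathways differed from one another. Of 12 genes of the integrated stress response 6 were higher by 2-fold or more in dorsal cells, beside 4.15% of all 7660 genes, with a median of 1.02. Among the 6 were the cystine transporter gene Slc7a11 at 2.14, the phosphatase subunit gene Ppp1r15a at 1.72 and the factor gene Ddit3 at 1.66. The 10 measured heat shock genes had a median of 0.02, with the endoplasmic reticulum chaperone gene Hspa5 higher at 1.26, Hspb1 lower at -1.23 and Hsp90aa1 at -0.46. The inducible heat shock genes Hspa1a and Hspa1b had means below 10 CPM. None of 9 p53 targets reached 2-fold, with a median of -0.07, from Phlda3 at -0.61 and Ccng1 at -0.51 to Mdm2 at 0.43. Of 7 genes of the oxidative stress response 2 were higher, Srxn1 at 1.10 and Hmox1 at 1.03, with Sqstm1 at 0.998 just under 2-fold and a median of 0.26.

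**Figure D5:**
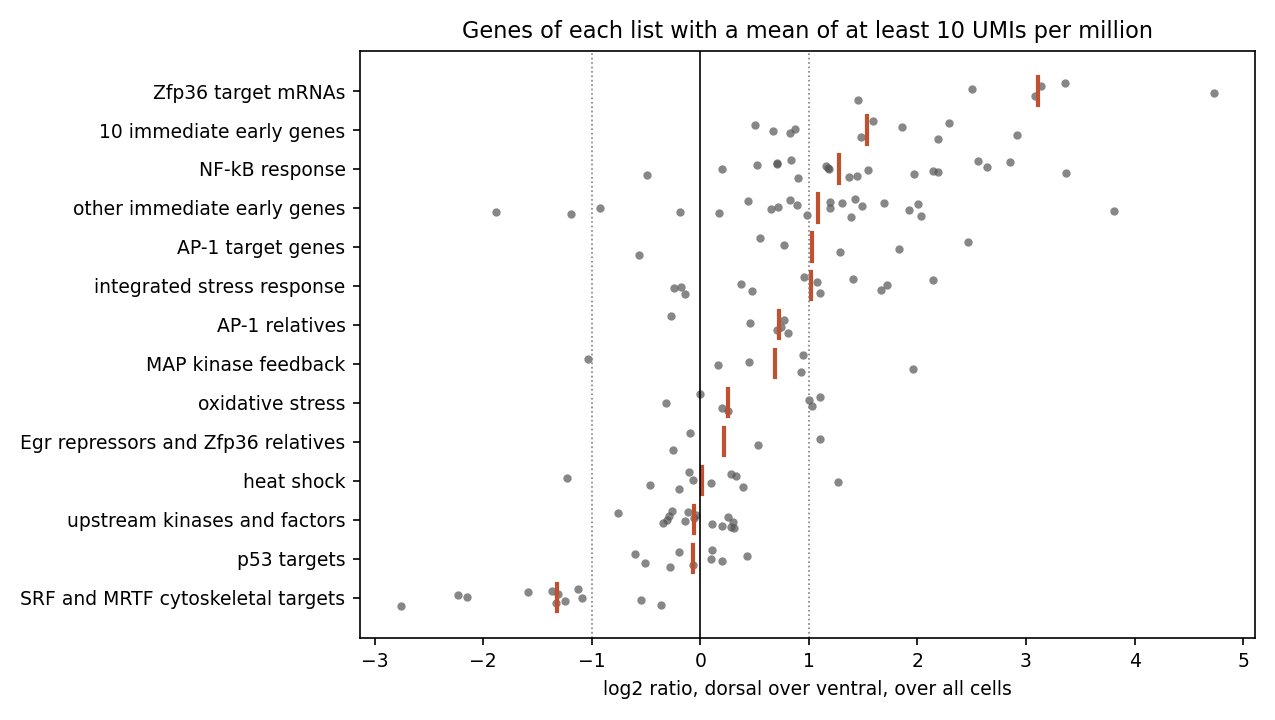
log2 ratio of dorsal over ventral CPM over all cells for the genes of each list with a mean of at least 10 CPM (grey points). Red bars are list medians, dotted lines mark 2-fold, and lists are ordered by their median. The 10 immediate early genes have a median of 1.53, between the Zfp36 target mRNAs at 3.11 and the NF-kB response at 1.28, and the SRF and MRTF cytoskeletal targets lie lowest at -1.32.

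The genes most like the 10 over single cells were found by their correlation with the summed level of the 10 genes, averaged over both libraries. They were Cxcl1, Btg2, Nfkbia, Nfkbiz, Ier3, Mfap4, Zfp36l1 and Ccl7. Cxcl1, a neutrophil-attracting chemokine gene, had a correlation of 0.565 in dorsal and 0.332 in ventral cells, and Btg2 one of 0.616 in dorsal and 0.265 in ventral cells. Nfkbia, the NF-kB inhibitor gene, reached 0.547 in dorsal and 0.328 in ventral cells. Of these 8 genes, 7 were higher by 2-fold or more in dorsal cells, beside 4.15% of all 7660 genes. The 8 were picked from these same cells by their likeness to the 10 genes, so this count is not independent of them. At ranks 9 to 20 of the same order, the log2 ratio ranged from -1.30 for Cst3 to 4.73 for Cxcl2. Mfap4, a matrix microfibril gene, had 968 CPM in dorsal cells, against 1032 CPM in ventral ones. It still correlated at 0.421 in dorsal and 0.307 in ventral cells. Over the 12 sums by class and library, the genes most like the mean of the 10 were Cryz, Myl1, Mrpl24, Tmem175 and Plac8, with correlations of 0.899 to 0.852, which rest on 12 points that share 2 libraries.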

How the data were processed

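RNA of single cells was read in 2 libraries, dorsal and ventral. The submitters' processing notes name Cell Ranger 3.0.2 and mm10, and which annotation release was used is not given in the sources used here. Raw UMI counts without normalisation were deposited by the authors, covering 28692 genes and 6794880 barcodes in each library. Their totals were 246920028 (dorsal) and 264822916 (ventral), of which 92.8% and 95.6% lay in the cells kept. The minimum of 8000 UMIs and the limit of 20% mitochondrial UMIs removed 9 dorsal and 15 ventral barcodes by the mitochondrial limit. Gene positions were taken from GENCODE M21 on GRCm38, with 28339 of 28692 IDs matched.

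Counts were summed per library, class or cluster and scaled to CPM. Intervals at 95% were exact Poisson for CPM, exact conditional binomial for ratios and Clopper-Pearson for shares; UMIs of 1 library are not independent samples of the domain. The ratio step was checked on simulated counts. Cells were clustered with scanpy 1.11.5 (10000 UMIs per cell, 2000 variable genes less the listed genes, which left 1913, 30 components, 15 neighbours, Leiden resolution 1.0). A cluster was named when at least 3 markers and 1/3 of a class's list were detected in 25% of its cells and 2-fold higher than elsewhere, with 5 CPM added; clusters with at least 5 cycling genes among 10 leading genes stayed unnamed. Clusters of at least 50 cells without such a class were called fibroblast-like when 5 fibroblast markers were found in 50% of cells and no other class led among the 10 genes. Unnamed cells numbered 2353 dorsal and 811 ventral. Scrublet marked 0% of dorsal and 5.11% of ventral cells automatically, so no cell was removed in the values reported, and the expected share with the highest scores, 637 dorsal and 907 ventral cells, was left out as an alternative. The naming rule was set after clusters had been seen. The 10 genes and all lists were chosen with earlier results of these data known. Named genes were all 10 members, the 3 of each list with the largest ratio in size at a mean of at least 10 CPM, and the 8 and the 5 most correlated genes. Alternatives changed the UMI minimum, the mitochondrial limit, doublets, scaling (TMM, edgeR 4.0.16), weights, clustering, thinning and the correlation.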

Additional observations from a re-analysis of the deposited data

Results flagged for a closer look

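In endothelial-like cells 3 genes had a log2 ratio below 0 with an interval clear of 0, while the same genes were higher in dorsal cells of the mural-like class. Fos had -1.22 in endothelial-like and 2.64 in mural-like cells. Atf3 had -0.90 in endothelial-like and 3.83 in mural-like cells. Ier2 had -0.25 in endothelial-like, with an interval of -0.42 to -0.08, and 1.30 in mural-like cells. With 1 library per domain the difference between classes was not tested.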

How the results depend on the processing

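No paired analysis was possible because each domain is 1 library, and for the same reason no library could be left out in turn. All 10 genes had a higher level in dorsal cells under all 9 alternatives run over all cells. In each of these, 6 of the 10 differed by at least 2-fold. Dropping the expression minimum of 10 CPM cannot change these counts, because all 10 genes lie above it. It does change the background: without it, 20.8% of 21318 genes showed a dorsal excess of this size, against 4.15% of 7660 genes with it. The ratio of Egr2 ranged from 1.83 to 2.97, of Fos from 0.50 to 0.96 and of Junb from 0.31 to 0.52. The median log2 ratio of 1.53 was 1.42 under TMM scaling, which moved all genes by -0.12, 1.59 with every cell weighted equally and 1.59 with every class at its mean share. Chosen after seeing the data, it was 1.44 without cluster 0, whose leading genes include Sele and Cxcl2 (1618 dorsal cells, 12 ventral), and 1.20 in the 1767 dorsal and 6013 ventral cells of 4% to 20% mitochondrial UMIs, where Egr2 had its lowest ratio. The cause was not tested.

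The number of genes at least 2-fold higher in dorsal glial-like cells, 3, was 1 at resolution 0.5 and 1 without likely doublets, and the number in endothelial-like cells, 2, was 1 at resolution 2.0. The cause was not tested. Over the 5 classes the total of 22 ranged from 18 to 21, and the median of class medians from 0.55 to 0.76. The difference in share, 20.3 points, was 21.0 without thinning and 20.8 in cells of at least 15000 UMIs thinned to that depth. The median pairwise correlation in dorsal cells, 0.271, was 0.160 in glial-like, 0.122 in endothelial-like, 0.233 in fibroblast-like, 0.291 in macrophage-like and 0.367 in mural-like cells alone. In ventral cells, 0.198, it was 0.149 as a Spearman correlation, 0.109 in glial-like and 0.164 in mural-like cells alone. Depth limits Egr2 most, which rested on 8 dorsal and 3 ventral UMIs in endothelial-like cells.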
